A study of Rattus norvegicus with 150 samples.

Results

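Cell division in rat muscle carrying embedded metal was followed through 7 cell cycle genes, which are 7 of the 32545 genes counted. They were listed by name as markers of dividing cells, with no threshold on their counts but with earlier results of these data known, and were found in the count table by Ensembl identifier. They were Ccnd1 (ENSRNOG00000020918), Pcna (ENSRNOG00000021264), Ccna2 (ENSRNOG00000015423), Cdk1 (ENSRNOG00000000632), Top2a (ENSRNOG00000053047), Birc5 (ENSRNOG00000050819) and Mki67 (ENSRNOG00000028137). All 7 had a row. The table holds identifiers without names, and the reference table used holds no Ensembl identifier, so the names came with the gene list and could not be checked here.

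RNA-seq was made from gastrocnemius, a calf muscle, of male Sprague-Dawley rats bought at about 30 days of age and kept for at least 2 weeks before surgery. Cylinders 1 mm wide and 2 mm long were put into the muscle, 4 per rat. Nickel (Ni) was sampled 1, 3 and 6 months after implantation. Cobalt (Co), depleted uranium (DU) and a metal written P were sampled at 1, 3, 6 and 12 months. Each was set against tantalum (Ta), the sham metal, of the same time. Lead (Pb) is the only metal in the design text that P could abbreviate, but the labels do not spell it out and it stays P here. Ta groups had the same surgery and carry metal too, and no muscle without metal was analysed here. There were 150 libraries in 19 groups, 8 in each but for Co at 6 months and Ta at 1 month, with 7 each. The study planned groups of 8 rats, but no label names the animal behind a library, so a p-value here reflects library-to-library spread. The labels do not say whether any sampled muscle held a tumour.

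In a dividing cell, D-type cyclins such as Ccnd1 carry growth signals into the cell cycle and open the way to DNA synthesis. Pcna then holds DNA polymerase on its template. Ccna2 and Cdk1 drive S phase, G2 and entry into mitosis, Top2a untangles the copied chromosomes, and Birc5 (survivin) works at centromeres during division. Mki67 encodes Ki-67, a protein of cycling cells that pathologists stain to grade tumours. Adult muscle fibres are post-mitotic, so in healthy muscle these RNAs are low and come mainly from the cells between fibres. Implanted nickel, cobalt and depleted uranium are known to cause sarcomas in rats. In whole muscle, fewer cells of a type and less RNA per cell cannot be told apart.

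Genes of late cell cycle share promoter elements, the CHR and the CCAAT box, and genes of DNA synthesis are known for E2F sites. The 250 bases before the transcript start are therefore shown for the 5 of the 7 members with a RefSeq promoter of build GRCr8 at hand. Ccna2 and Ccnd1 are named only. Capitals mark matches on either strand to the CHR (TTTGAA), the CCAAT box (CCAAT) and the E2F site. The E2F site was searched in 4 spellings, of which TTCCCGC was the first. The second spelling was TTCGCGC. The third was TTGCCGC, while the last one searched was TTGGCGC. Pcna lies at chr3:139955821-139956070 (minus strand), Cdk1 at chr20:19265043-19265292 (plus), Top2a at chr10:84473094-84473343 (minus), Birc5 at chr10:103571896-103572145 (plus) and Mki67 at chr1:199952594-199952843 (minus). The windows of Birc5 and Mki67 lie within the outermost bounds of their genes and that of Cdk1 does so in part, because the table takes 1 transcript start per gene.
Pcna: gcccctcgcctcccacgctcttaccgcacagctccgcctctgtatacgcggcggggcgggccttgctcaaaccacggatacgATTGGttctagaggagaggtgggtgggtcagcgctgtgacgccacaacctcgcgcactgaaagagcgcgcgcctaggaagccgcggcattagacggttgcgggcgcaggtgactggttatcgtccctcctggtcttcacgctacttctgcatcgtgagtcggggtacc
Cdk1: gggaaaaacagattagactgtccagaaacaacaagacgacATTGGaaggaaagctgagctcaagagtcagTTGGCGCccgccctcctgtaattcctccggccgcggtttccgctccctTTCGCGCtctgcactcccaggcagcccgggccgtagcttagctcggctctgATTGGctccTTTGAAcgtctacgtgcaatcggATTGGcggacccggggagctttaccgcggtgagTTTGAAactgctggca
Top2a: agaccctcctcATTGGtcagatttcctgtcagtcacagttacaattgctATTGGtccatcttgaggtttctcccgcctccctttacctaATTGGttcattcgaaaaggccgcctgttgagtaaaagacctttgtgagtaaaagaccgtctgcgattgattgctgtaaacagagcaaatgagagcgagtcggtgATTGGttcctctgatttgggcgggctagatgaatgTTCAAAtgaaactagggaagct
Birc5: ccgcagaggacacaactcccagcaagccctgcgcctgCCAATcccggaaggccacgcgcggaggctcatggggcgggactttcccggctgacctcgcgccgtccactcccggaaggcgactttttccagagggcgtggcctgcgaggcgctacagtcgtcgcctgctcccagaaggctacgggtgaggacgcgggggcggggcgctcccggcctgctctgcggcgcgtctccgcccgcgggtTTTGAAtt
Mki67: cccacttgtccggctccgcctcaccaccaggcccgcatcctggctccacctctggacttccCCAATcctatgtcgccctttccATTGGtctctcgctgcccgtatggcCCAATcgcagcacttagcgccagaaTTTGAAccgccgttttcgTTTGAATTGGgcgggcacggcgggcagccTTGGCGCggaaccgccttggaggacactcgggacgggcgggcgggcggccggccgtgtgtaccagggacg

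The CHR letters stood in 4 of the 5 windows, those of Cdk1, Top2a, Birc5 and Mki67, and in 16.2% of 33469 promoters of the same length. Cdk1 and Mki67 each had 2 such matches, and 2.09% of all promoters had 2 or more. CCAAT stood in all 5 windows and in 34.0% of all promoters, with 4 matches in Top2a and 4 in Mki67. E2F letters stood in Cdk1 (2 matches) and Mki67 (1 match), and in 7.59% of all promoters. The GC box (GGGCGG, not in capitals) stood in all 5 windows and in 30.5% of all promoters. In Mki67 the CHR match that begins at -99, counted back from the transcript start, shares its last base with a CCAAT match that begins at -94. That match in turn overlaps a GC box that begins at -91. A match is a run of letters and was not tested as a site.

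Libraries held 12674115 to 21921859 counts (median 15778710). Levels are given as CPM, counts scaled to a common library size with TMM factors, which correct for libraries dominated by a few genes. In these libraries 3 counts, the floor used for a value of 0, were worth 0.118 to 0.445 CPM. Ccna2, Cdk1 and Birc5 lay near that floor in most libraries. Since gene lengths were not used, CPM values are compared between libraries and not between genes. The GRCr8 table names 3 pseudogenes of Pcna, 1 of Cdk1 and 1 of Mki67, and reads of these genes may be shared with them. Markers of muscle and of other cell types could not be looked up without names, so the makeup of each sample was not tested.

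Co at 3 months held the highest levels of the late cell cycle genes, and it held them in some libraries only. Mki67 was at 2.16, 49.1, 25.4, 3.37, 1.31, 41.4, 3.37 and 51.4 CPM in Co replicates 1 to 8, against 0.551 to 3.69 CPM (median 1.01) in 8 Ta libraries. Replicates 2, 3, 6 and 8 of Co stood above every Ta library, and the other 4 lay within the Ta range. The log2 fold change of Mki67 was 3.99 ± 0.79 (SE; adjusted p = 0.0119, edgeR's quasi-likelihood test with Benjamini-Hochberg adjustment). Top2a, the topoisomerase of chromosome untangling, was at 1.02, 31.6, 16.5, 2.29, 0.484, 23.3, 1.63 and 25.5 CPM in the same Co libraries, against 0.164 to 1.29 CPM (median 0.494) with Ta. It was higher by 4.44 ± 0.84 on the log2 scale (adjusted p = 0.0119 by edgeR). Ccna2, the S and G2 phase cyclin, was at 0.635, 9.59, 6.78, 0.674, 0.622, 7.51, 1.57 and 10.01 CPM with Co, against 0.235 to 0.982 CPM (median 0.503) with Ta. Its log2 fold change was 3.17 ± 0.66 (adjusted p = 0.0139 by edgeR).

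These 3 were the members called higher of the 5 that passed the filter on low counts, and none was lower. Of all 12429 genes tested, 6.17% were called higher and 0.274% lower. The median log2 fold change was 3.17 over the 5 members and -0.03 over all genes. Ccna2 and Top2a passed the filter here but failed it with Ni, P and DU against Ta at 3 months. They entered this fit through their counts in Co, so the count of 3 and the median draw partly on members high in Co. Among the 5 members tested, Pcna, Ccna2, Top2a and Mki67 had at least 4 Co libraries above every Ta library, as did 18.7% of all genes tested. No member had all 8 Co libraries above Ta. The share of all genes with all 8 above Ta is not given here, so this only describes the members.

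Cdk1 and Birc5 did not pass the filter at 3 months and were not tested in this fit. Cdk1, the kinase of mitotic entry, was at 0.698, 8.36, 3.29, 0.202, 0.415, 7.15, 0.755 and 9.96 CPM in Co replicates 1 to 8, against 0.082 to 0.982 CPM (median 0.414) with Ta. Birc5 was at 0.444, 7.14, 3.65, 0.741, 0.0692, 7.78, 0.697 and 8.04 CPM with Co, against 0 to 0.582 CPM (median 0.210) with Ta. The same 4 Co libraries, replicates 2, 3, 6 and 8, were highest in Ccna2, Cdk1, Top2a, Birc5 and Mki67. Without the filter, edgeR called 5 of 7 members higher, against 6.69% of all genes, with log2 fold changes of 3.07 ± 0.76 for Cdk1 (adjusted p = 0.0209) and 3.63 ± 0.83 for Birc5 (adjusted p = 0.0144).

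Pcna and Ccnd1 differed by smaller folds. Pcna, the DNA polymerase clamp, was at 18.02, 38.3, 32.8, 18.2, 18.4, 40.1, 18.6 and 39.1 CPM in Co libraries, against 15.6 to 21.1 CPM (median 19.8) in Ta libraries. The 4 Co libraries above the Ta range were again replicates 2, 3, 6 and 8. The log2 fold change of 0.60 ± 0.21 missed the threshold (adjusted p = 0.0886 by edgeR), and passed it without Co replicate 1, 4 or 5 (0.0451, 0.0407 and 0.0463). Ccnd1, the cyclin of growth signals, was at 13.5, 39.6, 15.6, 9.84, 15.7, 34.3, 16.6 and 36.3 CPM with Co, against 6.80 to 20.3 CPM (median 12.5) with Ta. Replicate 3, high in the other 6 genes, lay within the Ta range for Ccnd1. Its log2 fold change was 0.83 ± 0.33 (adjusted p = 0.133 by edgeR).

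The calls at 3 months rested on the fit. Same-numbered Co and Ta libraries of this time deviated together, and with the replicate number as a block edgeR called 0 members, against 0.00805% of all genes called higher, and gave Ccna2, Top2a and Mki67 an adjusted p of 0.103 each. The blocked log2 fold changes were 2.66 ± 0.54 for Ccna2, 3.73 ± 0.76 for Top2a and 3.20 ± 0.83 for Mki67. limma voom with quality weights per library also called 0 members, against 0.0241% of all genes called higher (adjusted p = 0.0930 for each of the 3). Leaving out each library in turn kept Top2a and Mki67 past the threshold in 16 of 16 edgeR fits and Ccna2 in the 12 of 16 in which it passed the filter.

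**Figure D1:**
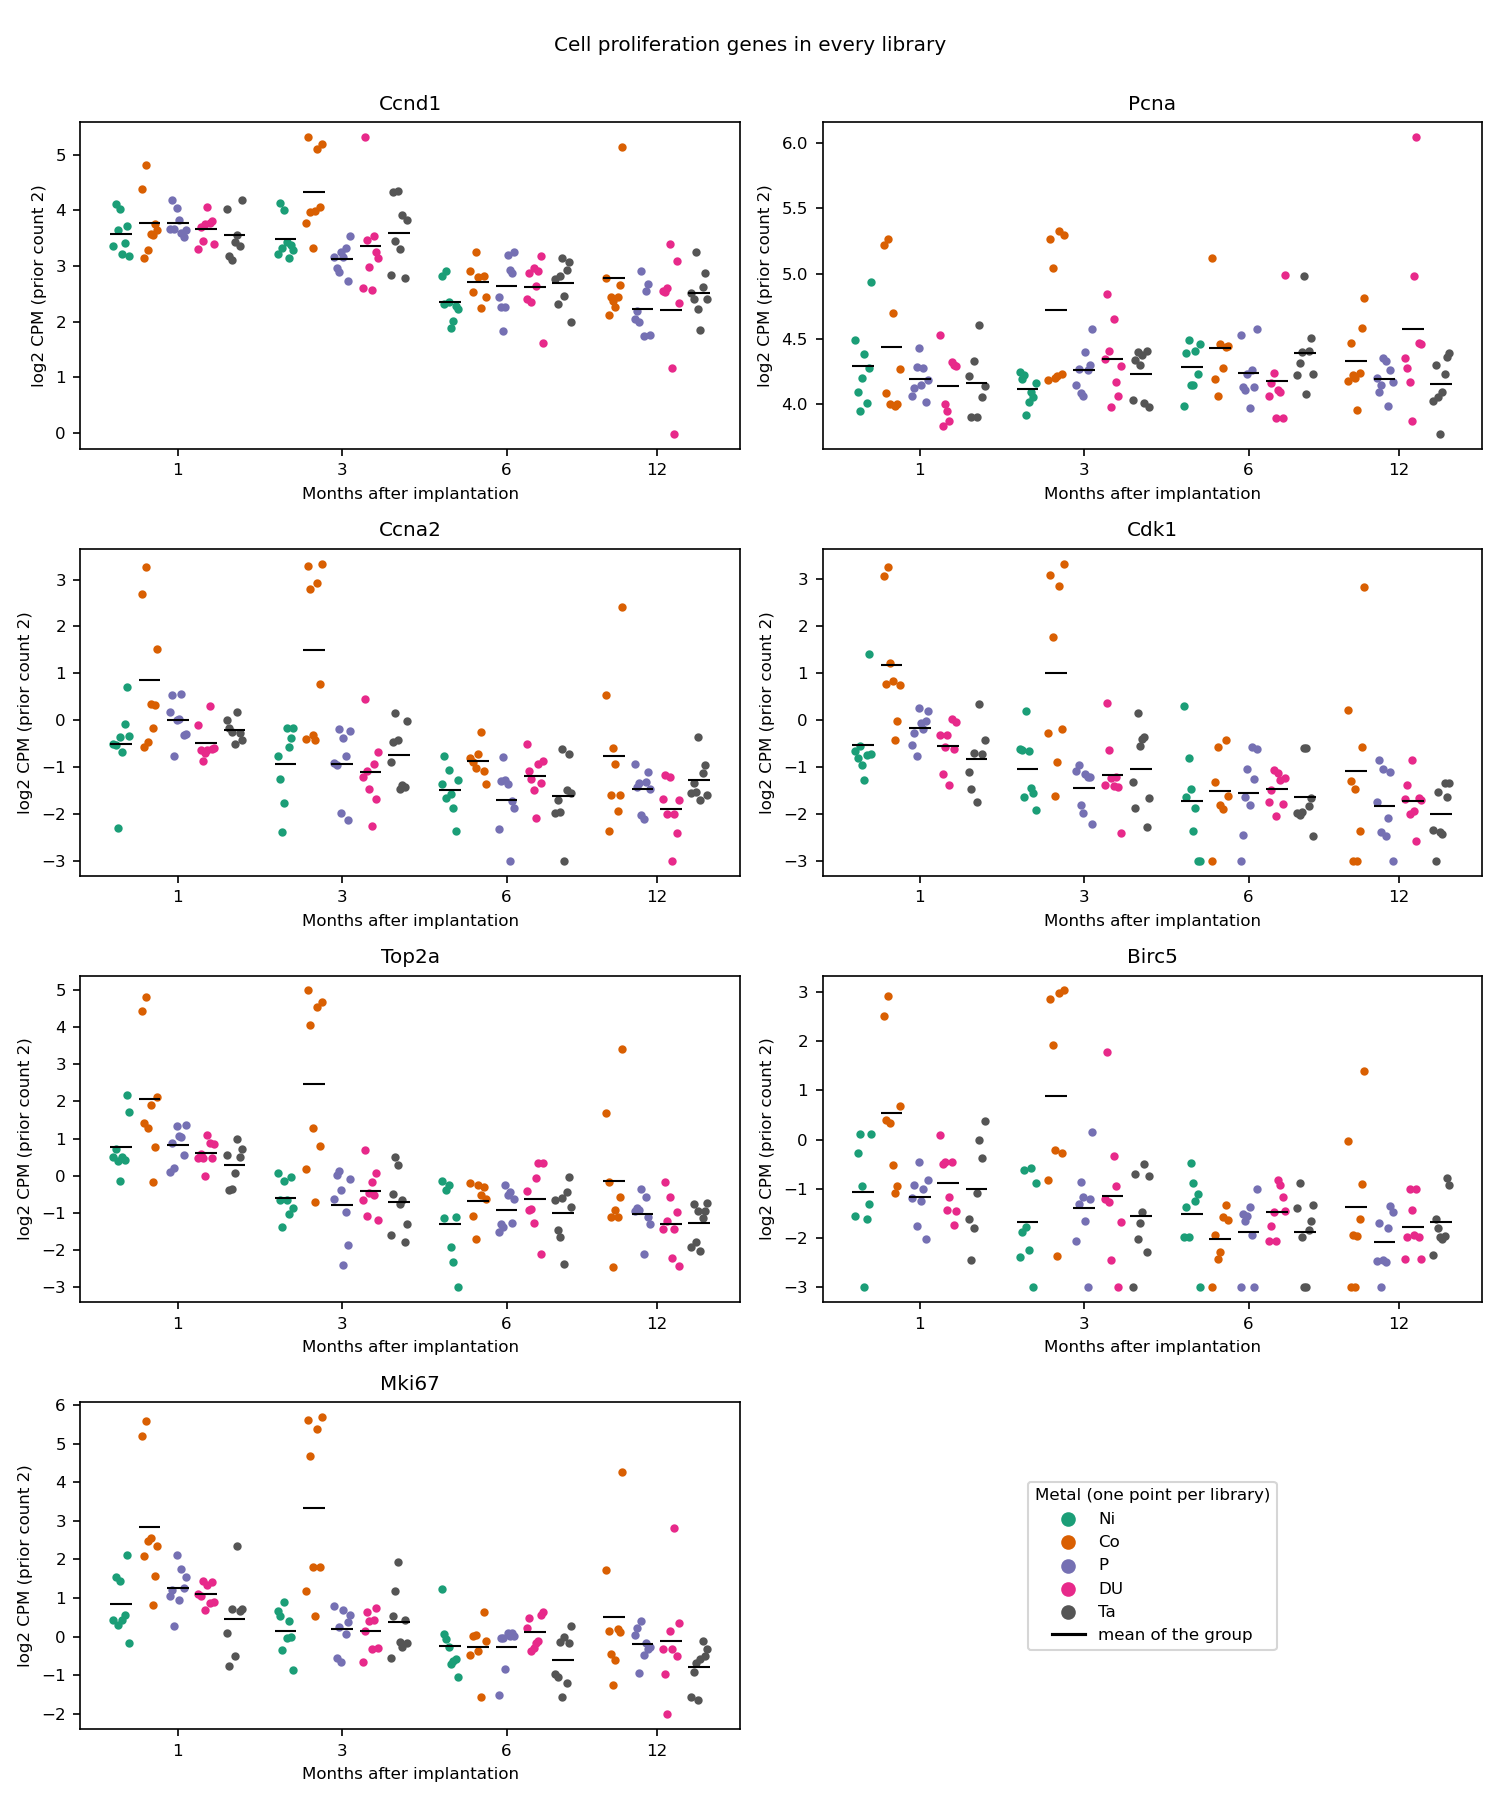
Level of each of the 7 genes in all 150 libraries, as log2 CPM (vertical axis) by months after implantation (horizontal axis) and metal (colour); a point is a library and a black line is the group mean. In Mki67 at 3 months, 4 Co libraries sit at 25.4 to 51.4 CPM (log2 above 4) and the other 4 among the Ta libraries.

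The Co libraries with high cell cycle RNA also differed from the rest in library makeup. TMM factors of Co replicates 1 to 8 at 3 months were 0.986, 1.89, 1.34, 1.05, 1.03, 1.69, 1.15 and 1.72. The number of genes at 1 CPM or more was 11720, 12798, 12482, 11741, 11611, 12609, 11799 and 12607 in the same order, and the 10 most abundant genes took 25.8, 15.5, 22.5, 27.4, 29.7, 17.6, 31.2 and 18.04 percent of counts. Replicates 2, 3, 6 and 8 had the highest factors, the most genes and the lowest shares of their group. The part of this in the result was not tested. With library totals in place of TMM factors the members' log2 fold changes were larger (4.65 ± 0.92 for Mki67, 5.10 ± 0.97 for Top2a and 3.81 ± 0.77 for Ccna2), and Pcna (1.12 ± 0.33, adjusted p = 0.0268 by edgeR) and Ccnd1 (1.36 ± 0.45, adjusted p = 0.0405 by edgeR) were called as well. That fit called 22.5% of all genes higher.

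Co was next set against the other metals at 3 months. These comparisons share the Co libraries with each other and with the comparison against Ta, so their calls are not independent. Top2a, and Ccna2 against Ni and DU, passed the filter here but not between these metals and Ta at 3 months. Against Ni, all 5 members tested were higher with Co, while 11.5% of all genes were called higher. Their log2 fold changes were 4.46 ± 0.79 for Mki67, 4.54 ± 0.82 for Top2a, 3.44 ± 0.70 for Ccna2, 0.77 ± 0.21 for Pcna and 1.06 ± 0.30 for Ccnd1 (adjusted p = 0.00656, 0.00656, 0.00832, 0.0261 and 0.0328 by edgeR). Both Pcna and Ccnd1 missed the threshold without Co replicate 2, 6 or 8, with adjusted p values of 0.0648 to 0.0661 for Pcna and 0.0800 to 0.0853 for Ccnd1, which leaves 3 members. Pcna also missed it without Co replicate 3 or Ni replicate 5 or 7 (0.0503, 0.0508 and 0.0517), as did Ccnd1 without Ni replicate 1, 3, 5, 6, 7 or 8 (0.0573 to 0.0665). The shares of all genes called by fits without a library are not given here, so these losses only describe the members. limma voom with quality weights called 0 members against Ni, and 0.00806% of all genes higher. Against P, all 4 members tested were higher with Co, while 19.6% of all genes were. Mki67 differed by 4.44 ± 0.77, Top2a by 4.60 ± 0.86, Ccnd1 by 1.44 ± 0.28 and Pcna by 0.61 ± 0.21 on the log2 scale (adjusted p = 0.00197, 0.00222, 0.00247 and 0.0398 by edgeR). Against DU, 3 of 5 members tested were higher with Co, while 12.0% of all genes were. Those were Mki67 (4.50 ± 0.79), Top2a (4.29 ± 0.84) and Ccna2 (3.58 ± 0.73), with adjusted p values of 0.00531, 0.00599 and 0.00720 by edgeR. Ccnd1 (0.90 ± 0.44) and Pcna (0.50 ± 0.24) missed the threshold, with adjusted p values of 0.159 and 0.147 by edgeR. DU replicate 2, described below, held 39.9 CPM of Ccnd1 (DU median 9.06 CPM), and its part in that result was not tested.

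At 1 month the same genes were high in 2 Co libraries. Mki67 was at 36.6, 4.12, 48.2, 5.48, 5.72, 1.65, 2.84 and 5.01 CPM in Co replicates 1 to 8, against 0.467 to 4.94 CPM (median 1.45) in 7 Ta libraries. Replicates 1 and 3 stood far above the rest, and 3 more Co libraries were above every Ta library. Top2a was at 21.6 and 27.9 CPM in replicates 1 and 3 and at 0.758 to 4.23 CPM in the other 6 Co libraries, against 0.642 to 1.87 CPM (median 1.29) with Ta. Ccna2 in Co ran from 0.542 to 9.49 CPM (median 1.13), against 0.578 to 1.00 CPM (median 0.710) with Ta. Cdk1 was above every Ta library in 6 of 8 Co libraries, with 0.620 to 9.41 CPM (median 1.61) in Co, against 0.173 to 1.14 CPM (median 0.482) in Ta. Birc5 ran from 0.345 to 7.42 CPM (median 1.16) with Co, against 0.0584 to 1.17 CPM (median 0.347) with Ta. The levels of Cdk1 and Birc5, like those of the 3 genes before them, were highest in replicates 1 and 3. The share of all genes with as many Co libraries above Ta was not counted at 1 month.

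None of the 7 members, all of them tested, was called between Co and Ta at 1 month, nor was any of 12512 genes (0.0%) with edgeR. Unadjusted p was under 0.05 for 5 members, against 14.5% of all genes. Birc5 failed the filter with Ni, P and DU against Ta at 1 month, and Cdk1 failed it with Ni and DU. Birc5 at least entered this fit through its counts in Co, so the count of 5 draws partly on a member high in Co. DESeq2 called 5 members and 4.49% of all genes, and limma voom called 0 members and 0.0% of all genes. The log2 fold changes of those 5 were 3.06 ± 0.79 for Mki67, 2.77 ± 0.72 for Top2a, 2.71 ± 0.63 for Cdk1, 2.20 ± 0.74 for Birc5 and 1.91 ± 0.60 for Ccna2, with adjusted p values of 0.126 to 0.186 by edgeR. Pcna was at 37.1 and 38.4 CPM in replicates 1 and 3 and at 15.7 to 25.9 CPM in the other Co libraries, against 14.8 to 24.2 CPM with Ta. Its log2 fold change was 0.35 ± 0.22, and that of Ccnd1 was 0.27 ± 0.25. The difference between Co and Ta was not shown to be larger at 3 months than at 1 month. That interaction called 0 of 7 members and 0.0% of 13749 genes, and its value for Mki67 was 0.91 ± 1.07. Unadjusted p was under 0.05 for 0 members, against 3.66% of all genes. DESeq2 called 0 members and 0.00428% of all genes, and limma voom 0 members and 0.0% of all genes.

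At 6 months no Co library was high in the late cell cycle genes. Mki67 was at 0.213 to 1.44 CPM (median 0.794) in 7 Co libraries, against 0.212 to 1.09 CPM (median 0.574) in 8 Ta libraries. The groups overlapped almost wholly, as they did for Top2a, with 0.182 to 0.742 CPM (median 0.569) with Co, against 0.0673 to 0.859 CPM (median 0.473) with Ta. Of the 3 members tested, none was called between Co and Ta, and neither was any of 12036 genes (0.0%), of which 6.8% had an unadjusted p under 0.05. Those members were Ccnd1, Pcna and Mki67, none of which had an unadjusted p under 0.05. DESeq2 called 0 members and 0.25% of all genes, and limma voom 0 members and 4.76% of all genes. Pcna in Co replicate 1 stood at 34.7 CPM, above the other 6 Co libraries at 16.6 to 21.8 CPM. That library had the lowest TMM factor of the series, 0.459, and its part in the value was not tested.

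Set against Co at 3 months, Co at 6 months was lower in 4 of 5 members tested, while 17.7% of all genes were called lower. Ccna2 and Top2a passed the filter here but failed it between Co and Ta at 6 months. They entered this fit through their counts at 3 months, so the count of 4 draws partly on members high at that time. The log2 fold changes were -4.86 ± 0.88 for Mki67, -4.65 ± 0.90 for Top2a, -3.50 ± 0.71 for Ccna2 and -1.83 ± 0.33 for Ccnd1 (adjusted p = 0.00643 each by edgeR). Pcna did not pass (-0.39 ± 0.26, adjusted p = 0.244 by edgeR). Without Co replicate 2, 3, 4, 6, 7 or 8 of 3 months, Ccna2 and Top2a failed the filter and 2 of 3 members tested were lower. The shares of all genes called lower by those fits are not given here. The Co minus Ta difference was larger at 3 than at 6 months for Top2a, by 4.14 ± 1.00 (adjusted p = 0.0210 by edgeR), and for Mki67, by 3.62 ± 0.93 (adjusted p = 0.0290 by edgeR). These were 2 of 6 members tested, while 3.2% of 13135 genes were called in that direction. Top2a, Ccna2 and Cdk1 failed the filter between Co and Ta at 6 months, so this count too draws partly on members high in Co at 3 months. Cdk1 (2.75 ± 1.05), Ccna2 (2.26 ± 0.88), Ccnd1 (0.81 ± 0.40) and Pcna (0.55 ± 0.28) did not pass the threshold. With limma voom and quality weights, 0 members were called in this interaction, against 6.02% of all genes in that direction.

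At 12 months replicate 8 was far above the other Co libraries. Mki67 was at 3.16, 0.974, 0.614, 0.296, 0.533, 1.02, 0.959 and 19.05 CPM in Co replicates 1 to 8, against 0.195 to 0.802 CPM (median 0.520) with Ta. In Mki67, 5 of 8 Co libraries exceeded every Ta library of that time, as did 4 in Top2a and in Cdk1, 3 in Pcna, 2 in Ccna2 and in Birc5 and 1 in Ccnd1. The share of all genes with such an excess was not counted at 12 months, so these counts only describe the members. Replicate 8 held the highest Co value of the other members too. It held 10.6 CPM of Top2a, 6.99 CPM of Cdk1, 5.24 CPM of Ccna2, 2.50 CPM of Birc5, 35.2 CPM of Ccnd1 and 28.02 CPM of Pcna. The highest Ta libraries of that time held 0.474 CPM of Top2a, 0.271 CPM of Cdk1, 0.649 CPM of Ccna2, 0.456 CPM of Birc5, 9.46 CPM of Ccnd1 and 20.8 CPM of Pcna. Replicate 1 came next among the Co libraries in Mki67, Top2a (3.10 CPM), Cdk1 (1.03 CPM), Ccna2 (1.32 CPM) and Birc5 (0.862 CPM), each above every Ta library of that time, while its Ccnd1 (6.78 CPM) and Pcna (17.98 CPM) were not. The TMM factors of replicates 8 and 1 were 1.21 and 1.08.

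Of the 7 members only Ccnd1 and Pcna passed the filter at 12 months, and neither was called between Co and Ta, against 0.0083% of 12045 genes called in either direction. The log2 fold change of Ccnd1 was 0.66 ± 0.43, but -0.12 ± 0.18 without Co replicate 8. That of Pcna was 0.20 ± 0.12, and 0.11 ± 0.10 without that library. With all libraries neither had an unadjusted p under 0.05, as 13.5% of all genes had. DESeq2 called 0 members and 0.649% of all genes, and limma voom 0 members and 1.38% of all genes. The model over all 150 libraries called 3 members and 0.163% of all genes.

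Taking all times, 5 libraries had all 7 members above each of the 31 Ta libraries. They were Co replicates 1 and 3 at 1 month and Co replicates 2, 6 and 8 at 3 months. Their TMM factors were 1.46, 1.71, 1.89, 1.69 and 1.72 in that order. Co replicate 3 at 3 months and Co replicate 8 at 12 months had 6 members above all Ta libraries, lacking Ccnd1 and Pcna in that order. No library of Ni, P or DU had more than 4. The nearest were DU replicate 2 at 3 months with 4 members and Ni replicate 7 at 1 month with 3. Of the 31 Co libraries 15 had none, as did 22 of 24 Ni, 26 of 32 P and 26 of 32 DU libraries. The share of all genes above every Ta library was not counted per library. These numbers therefore do not show whether the members stood out from other genes.

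**Figure D2:**
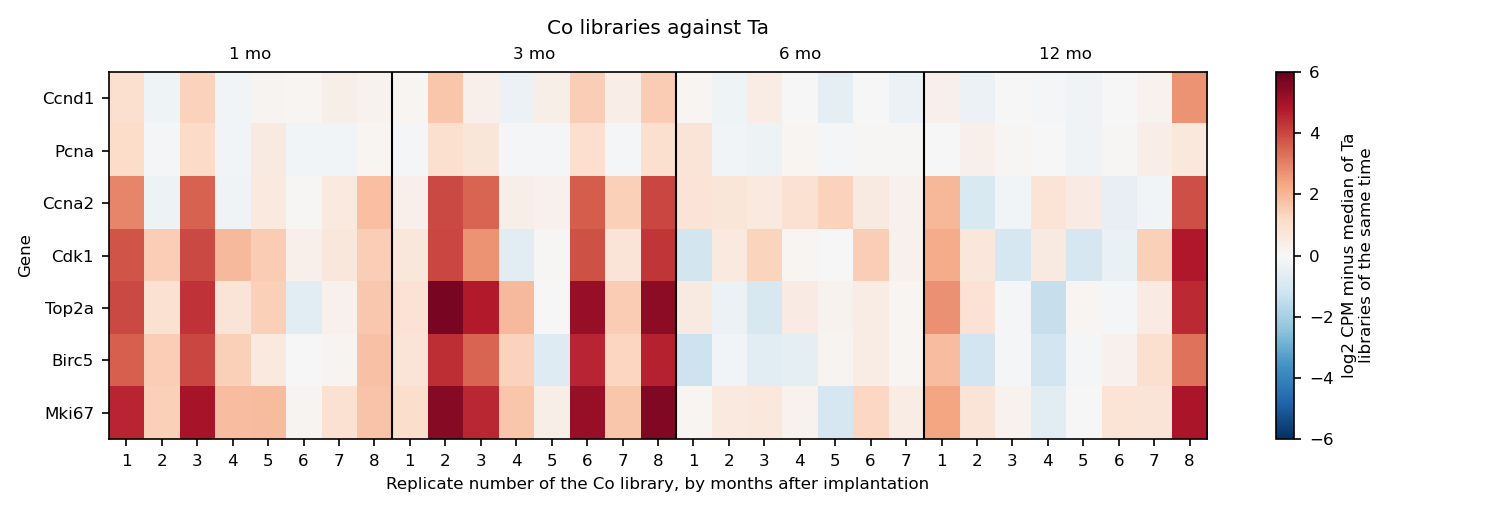
Difference of each Co library (columns, by replicate number and time) from the median of the Ta libraries of the same time, in log2 CPM, for the 7 genes (rows); red is above Ta and blue below. The dark columns are replicates 1 and 3 at 1 month, replicates 2, 3, 6 and 8 at 3 months and replicate 8 at 12 months.

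The late cell cycle genes spread widely within Co groups at 1, 3 and 12 months, and Pcna less so. The SD of log2 CPM at 3 months was 2.20 for Mki67 and 2.32 for Top2a with Co, and 0.84 and 0.83 with Ta. Of 12255 genes, 2.20% had a larger SD than Mki67 in Co at 3 months and 12.8% in Ta. At 12 months 0.694% of genes had a larger SD than Mki67 in Co. Pcna had an SD of 0.55, 0.56 and 0.27 in Co at 1, 3 and 12 months, exceeded by 41.1%, 45.6% and 59.9% of genes. Ccnd1 had an SD of 0.56 in Co at 1 month, exceeded by 39.9% of genes. In Co at 6 months Mki67 had an SD of 0.68, against 0.67 in Ta.

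With Ni, P and DU no member was called against Ta at any time by edgeR in the fits of 2 groups, nor by DESeq2 or limma voom. With Ni, 0 of 5, 3 and 2 members tested were called at 1, 3 and 6 months, and 0.0% of all genes at each time. No member tested had an unadjusted p under 0.05 with Ni, as 12.3%, 3.41% and 2.73% of all genes had at those times. DESeq2 called 0.00927%, 0.024% and 0.00491% of all genes, and limma voom 0.0% each time. In Ni muscle, Mki67 was at 0.760 to 4.22 CPM at 1 month, 0.420 to 1.74 CPM at 3 months and 0.356 to 2.22 CPM at 6 months. Those ranges overlapped with Ta, which had 0.467 to 4.94, 0.551 to 3.69 and 0.212 to 1.09 CPM at the same times. Top2a with Ni at 1 month was at 4.38 CPM in replicate 7 and 3.14 CPM in replicate 8, above the Ta range of 0.642 to 1.87 CPM, and its log2 fold change was 0.67 ± 0.38 (adjusted p = 0.449 by edgeR). Replicate 7 also held 2.53 CPM of Cdk1 and 1.52 CPM of Ccna2, above every Ta library, with 4.22 CPM of Mki67, which was within the Ta range.

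With P, 0 of 6, 3, 3 and 3 members tested were called at 1, 3, 6 and 12 months, against 0.0%, 0.338%, 0.0% and 2.38% of all genes in either direction. Unadjusted p was under 0.05 for Ccnd1 at 3 months (-0.60 ± 0.22 on the log2 scale) and Mki67 at 12 months (0.68 ± 0.30), with adjusted p values of 0.123 and 0.233 by edgeR. Of all genes, 8.2%, 25.2%, 7.41% and 17.8% had an unadjusted p under 0.05 at the 4 times. DESeq2 called 0.157%, 4.82%, 0.0956% and 3.06% of all genes with 0 members among them, and limma voom 0.0%, 32.7%, 0.0% and 5.9%, also with 0 members. Mki67 was at 0.399 to 1.19 CPM (median 0.738) with P at 12 months, against 0.195 to 0.802 CPM (median 0.520) with Ta.

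With DU, 0 of 5, 3, 3 and 2 members tested were called at 1, 3, 6 and 12 months, against 0.0%, 0.0%, 0.0% and 0.00826% of all genes in either direction. Unadjusted p was under 0.05 for Mki67 at 6 months (0.70 ± 0.31 on the log2 scale, adjusted p = 0.364) and Pcna at 12 months (0.59 ± 0.26, adjusted p = 0.309), both by edgeR. The value of Pcna was 0.25 ± 0.14 without DU replicate 6, described below (adjusted p = 0.441 by edgeR). Of all genes, 8.07%, 26.5%, 13.0% and 14.7% had an unadjusted p under 0.05 at the 4 times. DESeq2 called 0.0949%, 6.83%, 0.0632% and 0.878% of all genes with 0 members among them, and limma voom 0.0%, 38.4%, 0.0% and 3.02%, also with 0 members. Single DU libraries stood out in some members, at lower Mki67 than in the highest Co libraries. DU replicate 6 at 12 months held 6.92 CPM of Mki67 and 66.2 CPM of Pcna, the highest Pcna of the series, with 0.247 CPM of Top2a and 0.866 CPM of Ccnd1, the lowest Ccnd1 of the series. DU replicate 5 of that time held 31.5 CPM of Pcna and 2.12 CPM of Ccnd1. These 2 libraries had TMM factors of 1.56 and 1.48. DU replicate 2 at 3 months held 39.9 CPM of Ccnd1, the highest of the series, and 3.29 CPM of Birc5, against at most 20.3 and 0.582 CPM in Ta of that time. Its median correlation with the other libraries of its group was 0.415, the lowest of the series, and its part in these values was not tested.

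**Figure D3:**
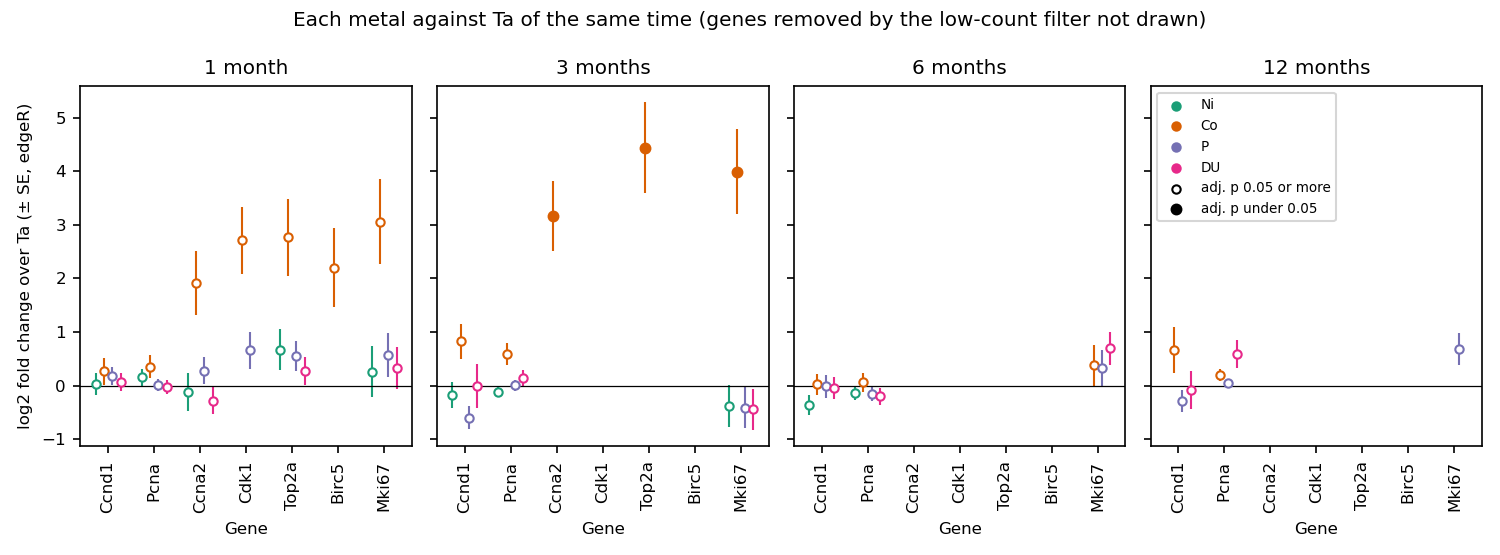
Log2 fold change over Ta of the same time (vertical axis; bars are ± SE, edgeR) for each gene (horizontal axis) and metal (colour) at each time; filled points have an adjusted p under 0.05, and genes removed by the low-count filter are not drawn. The filled points are Ccna2, Top2a and Mki67 in Co at 3 months, at 3.17, 4.44 and 3.99.

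The sham muscle itself changed with time. Ccnd1 in Ta was at 8.47 to 18.2 CPM (median 10.7) at 1 month, 6.80 to 20.3 CPM (median 12.5) at 3 months, 3.85 to 8.71 CPM (median 6.81) at 6 months and 3.51 to 9.46 CPM (median 5.39) at 12 months. The ranges at 6 and 12 months lay almost wholly below that at 1 month. Top2a in Ta was at 0.642 to 1.87 CPM (median 1.29), 0.164 to 1.29 CPM (median 0.494), 0.0673 to 0.859 CPM (median 0.473) and 0.121 to 0.474 CPM (median 0.362) at those 4 times. At 12 months every Ta library lay below every Ta library of 1 month in Top2a. The share of all genes separated in this way was not counted. Against 1 month, Ccnd1 fell by 0.90 ± 0.21 at 6 months and by 1.04 ± 0.21 at 12 months on the log2 scale (adjusted p = 0.0164 and 0.00355 by edgeR). Top2a fell by 1.48 ± 0.39 at 6 months and by 1.90 ± 0.35 at 12 months (adjusted p = 0.0271 and 0.00224 by edgeR).

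These were 2 of 4 members tested at 6 months and 2 of 3 at 12 months, while 5.73% and 9.98% of all genes were called lower. Top2a passed the filter between metals and Ta at 1 month but failed it at 6 and 12 months. It entered these fits through its counts at 1 month, so both counts draw partly on a member high at that time. At 3 months against 1 month, 0 of 5 members were called, against 0.00813% of all genes in either direction. DESeq2 called 0 members and 0.0577% of all genes, and limma voom 0 members and 4.15% of all genes. Top2a alone of the members had an unadjusted p under 0.05 by edgeR (-0.97 ± 0.40 on the log2 scale), as 6.4% of all genes had. Mki67 in Ta had medians of 1.45, 1.01, 0.574 and 0.520 CPM at 1, 3, 6 and 12 months. Its log2 fold change at 6 months was -1.42 ± 0.47 (adjusted p = 0.0648 by edgeR). It passed without Ta replicate 5 of 6 months (0.0480), whereas Top2a missed without Ta replicate 1 or 8 of 1 month or replicate 3 of 6 months (0.0565, 0.0567 and 0.0516). At 12 months, without Ta replicate 4 of 1 month, Ccna2 (-1.31, adjusted p = 0.0121 by edgeR) and Mki67 (-1.86, adjusted p = 0.0127) passed as well, which makes 4 members. The share of all genes called by that fit is not given here, so the count only describes the members. Pcna did not follow, with log2 fold changes of 0.22 ± 0.14 at 6 months and -0.02 ± 0.12 at 12 months.

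With Ni, P and DU the last time was likewise set against 1 month. Ni at 6 months was lower in 2 of 4 members tested, Ccnd1 by -1.29 ± 0.18 and Top2a by -2.28 ± 0.52 on the log2 scale (adjusted p = 0.00270 and 0.0238 by edgeR), while 2.11% of all genes were called lower. P at 12 months was lower in 3 of 4 members tested, while 6.01% of all genes were. Its log2 fold changes were -1.50 ± 0.17 for Ccnd1, -2.11 ± 0.30 for Top2a and -1.61 ± 0.26 for Mki67 (adjusted p = 4.89e-05, 0.0002503 and 0.000946 by edgeR). DU at 12 months was lower in 1 of 4 members tested, Top2a, with -2.10 ± 0.38 (adjusted p = 0.0145 by edgeR), while 0.755% of all genes were. Ccnd1 with DU came to -1.20 ± 0.34 (adjusted p = 0.0862 by edgeR). In these 3 metals Pcna was not called. Against Ta, Top2a failed the filter with Ni at 6 months and with P and DU at 12 months, but passed it at 1 month. It entered these fits through its counts at 1 month, so each count draws at least partly on a member high at that time.

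Co at 12 months against Co at 1 month called 0 of 6 members tested, while 18.4% of all genes were called in either direction. Unadjusted p was under 0.05 for Top2a (-1.98 ± 0.94) and Mki67 (-2.03 ± 0.92), and for 34.4% of all genes. Both failed the filter between Co and Ta at 12 months and entered this fit through their counts at 1 month. DESeq2 called 4 members and 15.7% of all genes, and limma voom 5 members and 26.9% of all genes.

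**Figure D4:**
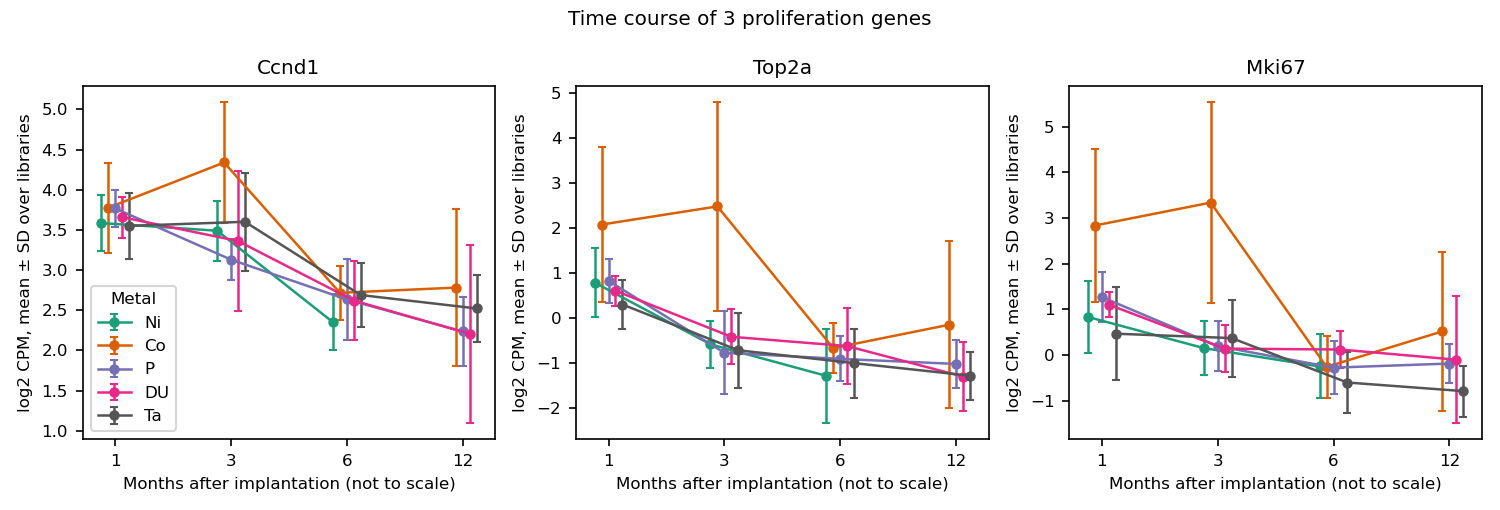
Mean log2 CPM of Ccnd1, Top2a and Mki67 (vertical axes; bars are the SD over the 7 or 8 libraries of a group) against months after implantation (horizontal axis, not to scale) for each metal. The Ta, Ni, P and DU lines are lower at their last time than at 1 month, though not at every step, and the Co lines of Top2a and Mki67 reach 2.48 and 3.34 at 3 months with SDs of 2.32 and 2.20.

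The 19 groups were ordered by mean log2 CPM. For Mki67, Co at 3 months came first (3.34 ± 2.20, SD) and Co at 1 month next (2.83 ± 1.68). Below them stood P at 1 month (1.27 ± 0.55), DU at 1 month (1.10 ± 0.28), Ni at 1 month (0.83 ± 0.78), Co at 12 months (0.52 ± 1.74), Ta at 1 month (0.47 ± 1.02), Ta at 3 months (0.37 ± 0.84) and P at 3 months (0.19 ± 0.54). The rest of the order was Ni at 3 months (0.15 ± 0.59), DU at 3 months (0.14 ± 0.51), DU at 6 months (0.12 ± 0.40), DU at 12 months (-0.10 ± 1.39), P at 12 months (-0.19 ± 0.42), Ni at 6 months (-0.25 ± 0.70), Co at 6 months (-0.26 ± 0.68), P at 6 months (-0.28 ± 0.59), Ta at 6 months (-0.60 ± 0.67) and Ta at 12 months (-0.79 ± 0.56). The 4 groups at 1 month other than Co stood among the upper 7, and Co at 3, 12 and 1 months had the widest SDs of the 19 groups.

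For Top2a, Co at 3 months came first (2.48 ± 2.32, SD) and Co at 1 month next (2.07 ± 1.73). Below them stood P at 1 month (0.83 ± 0.49), Ni at 1 month (0.79 ± 0.76), DU at 1 month (0.60 ± 0.34), Ta at 1 month (0.30 ± 0.53), Co at 12 months (-0.15 ± 1.85), DU at 3 months (-0.42 ± 0.61) and Ni at 3 months (-0.59 ± 0.52). The rest of the order was DU at 6 months (-0.62 ± 0.84), Co at 6 months (-0.67 ± 0.55), Ta at 3 months (-0.72 ± 0.83), P at 3 months (-0.77 ± 0.92), P at 6 months (-0.91 ± 0.50), Ta at 6 months (-1.003 ± 0.77), P at 12 months (-1.02 ± 0.53), Ta at 12 months (-1.28 ± 0.53), Ni at 6 months (-1.29 ± 1.05) and DU at 12 months (-1.30 ± 0.76). The 5 groups at 1 month stood among the upper 6.

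For Ccnd1, Co at 3 months came first (4.34 ± 0.75, SD) and Co at 1 month next (3.78 ± 0.56). Below them stood P at 1 month (3.77 ± 0.23), DU at 1 month (3.66 ± 0.25), Ta at 3 months (3.60 ± 0.61), Ni at 1 month (3.59 ± 0.35), Ta at 1 month (3.55 ± 0.41), Ni at 3 months (3.49 ± 0.37) and DU at 3 months (3.36 ± 0.87). The rest of the order was P at 3 months (3.13 ± 0.26), Co at 12 months (2.78 ± 0.98), Co at 6 months (2.72 ± 0.34), Ta at 6 months (2.69 ± 0.40), P at 6 months (2.63 ± 0.51), DU at 6 months (2.62 ± 0.50), Ta at 12 months (2.52 ± 0.42), Ni at 6 months (2.35 ± 0.35), P at 12 months (2.24 ± 0.43) and DU at 12 months (2.21 ± 1.11). The 10 groups at 1 and 3 months stood above every group at 6 and 12 months.

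For Pcna the order was Co at 3 months (4.72 ± 0.56), DU at 12 months (4.58 ± 0.67) and Co at 1 month (4.44 ± 0.55) at the top. Below them stood Co at 6 months (4.43 ± 0.34), Ta at 6 months (4.39 ± 0.27), DU at 3 months (4.34 ± 0.29), Co at 12 months (4.33 ± 0.27), Ni at 1 month (4.29 ± 0.32) and Ni at 6 months (4.28 ± 0.18). The rest of the order was P at 3 months (4.26 ± 0.17), P at 6 months (4.24 ± 0.21), Ta at 3 months (4.23 ± 0.19), P at 12 months (4.19 ± 0.12), P at 1 month (4.19 ± 0.14), DU at 6 months (4.18 ± 0.35), Ta at 1 month (4.16 ± 0.25), Ta at 12 months (4.15 ± 0.21), DU at 1 month (4.13 ± 0.26) and Ni at 3 months (4.11 ± 0.11). Pcna had no order by time, and 16 of its 19 group means lay between 4.11 and 4.43.

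Ccna2 averaged 1.49 ± 1.75 in Co at 3 months, 0.86 ± 1.47 in Co at 1 month and -0.01 ± 0.45 in P at 1 month, and least in DU at 12 months (-1.90 ± 0.61). Cdk1 averaged 1.18 ± 1.33 in Co at 1 month, 1.01 ± 1.98 in Co at 3 months and -0.18 ± 0.35 in P at 1 month, and least in Ta at 12 months (-2.01 ± 0.62). Birc5 averaged 0.89 ± 2.07 in Co at 3 months, 0.53 ± 1.49 in Co at 1 month and -0.89 ± 0.64 in DU at 1 month, and least in P at 12 months (-2.09 ± 0.59). In none of the 7 genes did 2 neighbouring groups in the order differ by more than the SD of both.

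Members were also compared between libraries of one group, as deviations of log2 CPM from the group mean. Co at 1, 3 and 12 months and DU at 12 months were left out, since Mki67 there had a gap of over 2 in log2 CPM between neighbouring libraries. In the other 118 libraries of 15 groups, 10 of 21 pairs of members were correlated (Benjamini-Hochberg adjusted p under 0.05 over the 21 pairs, two-sided permutation test with 100000 resamples), and all 10 were positive, with r of 0.25 or more. Of all pairs among 12255 genes, 24.0% had an r at or above that and 23.1% were as far below 0. With library totals in place of TMM factors these shares were 42.4% and 12.3% at the same r. The 12255 genes averaged at least 1 CPM. Ccna2, Cdk1 and Birc5 did not, yet each was in at least 1 of the 10 pairs, so the shares are from unlike genes. The lowest of the 10 was Ccnd1 with Birc5, with r of 0.25 (permutation p = 0.00654, adjusted p = 0.0137). By rank it did not pass, with rho of 0.10 (permutation p = 0.266, adjusted p = 0.466). Its r was 0.12 without the 2 libraries farthest from the median of Ccnd1. The highest was Cdk1 with Mki67, with Pearson's r of 0.49 (permutation p = 1e-05, the smallest the resamples can give, adjusted p = 0.000105) and Spearman's rho of 0.45 (permutation p = 1e-05, adjusted p = 0.00021). It was 0.43 without the 2 libraries farthest from the median of Cdk1. Cdk1 with Top2a had r of 0.39 (permutation p = 1e-05, adjusted p = 0.000105) and rho of 0.37 (permutation p = 8e-05, adjusted p = 0.00084), and r of 0.32 without the 2 farthest libraries. Top2a with Mki67 had r of 0.27 (permutation p = 0.00329, adjusted p = 0.00864) and rho of 0.23 (permutation p = 0.011, adjusted p = 0.0289). Pcna with Mki67 had r of 0.03 (permutation p = 0.739, adjusted p = 0.776) and rho of 0.05 (permutation p = 0.58, adjusted p = 0.653). Values of one library share its depth and its scaling, and with library totals in place of TMM factors 13 pairs passed.

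**Figure D5:**
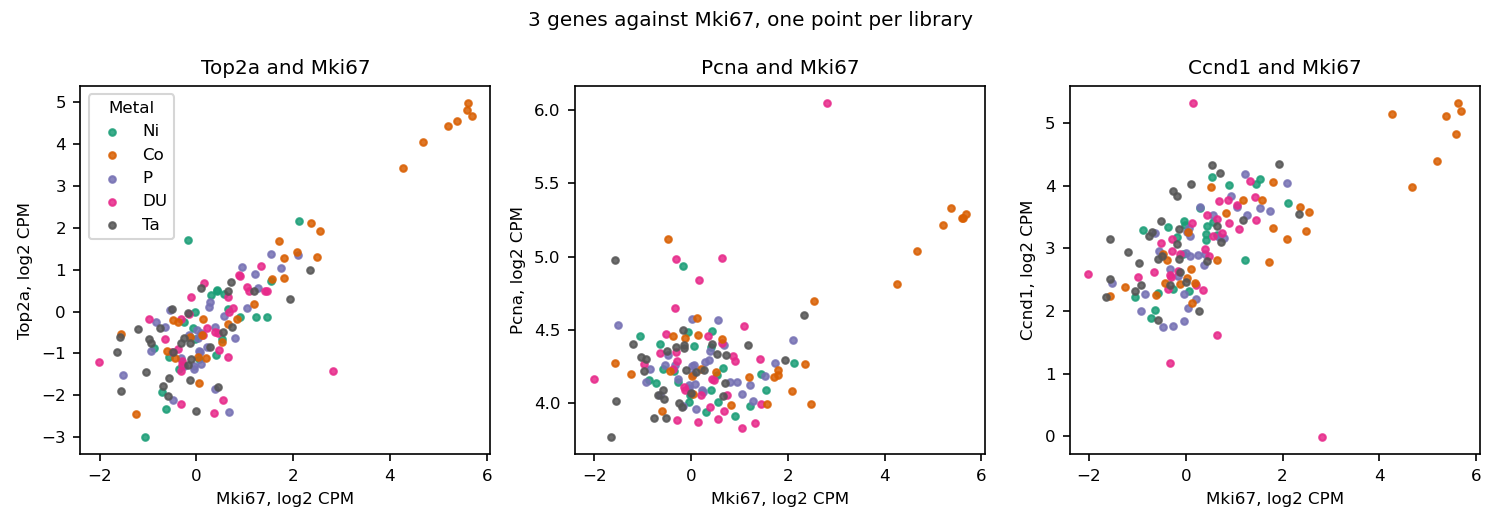
Top2a, Pcna and Ccnd1 (vertical axes) against Mki67 (horizontal axis), all in log2 CPM, one point per library and colour by metal. The 7 Co points at the far right have 19.05 to 51.4 CPM of Mki67, and the DU point at 6.92 CPM of Mki67 holds 66.2 CPM of Pcna and 0.866 CPM of Ccnd1.

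Over all 150 libraries and 12254 genes with a mean of at least 1 CPM, the genes most like Mki67 by Spearman's rho of log2 CPM were ENSRNOG00000008639 (rho 0.71) and ENSRNOG00000006094 (rho 0.70), whose names the files do not give. ENSRNOG00000008639 averaged 172 ± 130 CPM in Co, against 56.8 ± 14.7 CPM in Ta at 3 months (SD, n = 8 each). Among members, Top2a ranked at 7 (rho 0.68), Ccnd1 at 11 (rho 0.65) and Pcna at 4582 (rho 0.08). Ccna2, Cdk1 and Birc5 averaged under 1 CPM and were not ranked. These are descriptions over libraries that share metals and times.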

How the data were processed

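Per the labels' protocols, libraries were made with a stranded total RNA kit from 1000 ng of RNA and read as pairs of 100 bases. The authors deposited unnormalized counts, whole numbers for 32545 genes. The submitters' processing notes name HISAT2 2.0.5, featureCounts 1.5.0-p3 and build Rnor_6.0. The sources used here give neither the annotation release nor the counting's strand setting, and overlapping or antisense genes may share reads.

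The genes, though listed by name, and the lists and tests were chosen with earlier results of these data known. Fits held only the compared groups and used filterByExpr, TMM factors, robust dispersions and edgeR 4.0.16's quasi-likelihood test (limma 3.58.1, R 4.3.3), Benjamini-Hochberg adjustment over all genes tested and a threshold of 0.05. The SE is the size of the log2 fold change over the square root of F. TMM factors for CPM came from the whole series (150 libraries). A prior count of 2 was added for log2 CPM. The test was checked on simulated data. The floor for a value of 0 is 3 counts and covers counting error only. Within groups no libraries matched within sampling noise (lowest chi-square per degree of freedom 11.5).

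The text names all 7 genes and the genes with the highest Spearman rho to Mki67, at most 2 by identifier. None of 79 symbols in 4 gene lists and 56 in 10 marker lists could be matched to an identifier, so these lists were not tested. The labels do not say what a replicate number stands for. For Co against Ta at 3 months the deviations of same-numbered libraries from their group means correlated at 0.109 to 0.426 in all 8 pairs, so the blocked values are given there. In the other 25 comparisons of 2 groups at least 1 pair lay at or under 0.1.

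Each count of calls was also made with RLE size factors (those of DESeq2), with no filter, and with DESeq2 1.42.0, limma voom with sample quality weights, 1 model over all libraries, the replicate block and library totals without TMM. Each library was left out in turn in 10 comparisons, and the correlations were also made with a prior count of 0.5. Leave-one-out fits of Co against Ta at 12 months and of 3 comparisons over time, fits without Co replicate 1 at 6 months or DU replicates 5 and 6 at 12 months, and the groups left out of the correlations were chosen after seeing the data.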

Additional observations from a re-analysis of the deposited data

Results flagged for a closer look

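Of 133 sets of 1 gene in 1 group, 7 held a library far from the others of its group in log2 CPM, by Dixon's criterion, which chance meets in about 1 of 20 sets. Values are the gap to the nearest library as a share of the group's range. Ccnd1 in Co at 12 months had replicate 8 far above the others (35.2 CPM, group median 5.31 CPM; 0.781). Ccnd1 in DU at 3 months had replicate 2 far above (39.9 CPM, group median 9.06 CPM; 0.649). Pcna was far above its group in DU replicate 8 at 6 months (31.7 CPM, median 17.0 CPM; 0.685), Co replicate 1 at 6 months (34.7 CPM, median 21.5 CPM; 0.628) and Ta replicate 4 at 6 months (31.4 CPM, median 20.4 CPM; 0.527). Those 3 libraries had TMM factors of 0.786, 0.459 and 0.559. Cdk1 in Ni at 1 month had replicate 7 far above (2.53 CPM, median 0.475 CPM; 0.731), and Ccna2 in the same group had replicate 3 far below (0.0791 CPM, median 0.616 CPM; 0.537). The high Co libraries at 1 and 3 months were not singled out this way, since several of them lie close together.

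The Co minus Ta difference was larger at 3 than at 6 months for Top2a (adjusted p = 0.021, edgeR's quasi-likelihood test of the interaction) and for Mki67 (adjusted p = 0.029 by edgeR). At 3 months replicates 2, 3, 6 and 8 of the 8 Co libraries carried the high values of both genes, and at 6 months no Co library did.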

How the results depend on the processing

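Counts are of the 7 genes called. Shares of all genes called by the same fit are given above for some of these fits only. Where no share is given, a count describes the fit and does not show whether the members differed from other genes. No log2 fold change of a called gene changed sign under any alternative. DESeq2's size factors in edgeR moved no count by over 1.5 times.

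Co against Ta at 3 months called 3 genes, and 5 without a filter, with DESeq2 and without TMM factors, 7 in the model over all libraries, and 0 with voom weights and with the replicate block. At 1 month it called 0, but 5 with DESeq2 and 5 over all libraries. At 12 months it called 0, but 3 over all libraries, and DU against Ta at 12 months 0, with and without DU replicates 5 and 6, but 1 over all libraries. Co against Ni called 5, but 0 with voom weights and 0 with the replicate block. Co against P called 4, but 7 with DESeq2 and 7 over all libraries. Co against DU called 3, but 5 with DESeq2, voom weights and no TMM factors, and 7 over all libraries. Over time, Ta at 6 months called 2, but 4 with DESeq2 and 0 with the block. Ta at 12 months called 2, but 4 without a filter and 5 with DESeq2. Ni called 2, but 4 with DESeq2, 1 with the block and 1 without TMM factors. P called 3, but 5 without a filter and with DESeq2. DU called 1, but 5 with DESeq2, 3 with voom weights, 0 with the block and 4 over all libraries. Co at 12 months called 0, but 4 with DESeq2, 5 with voom weights and 5 over all libraries. The interaction of Co at 3 and 6 months called 2, but 0 with voom weights and with the block. The cause was not tested.

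Leaving out 1 library gave 2 to 4 for Co against Ta at 3 months, 3 to 6 for Co against Ni, 2 to 6 for Co at 6 against 3 months, 1 to 3 for Ta at 6 and 2 to 4 for Ta at 12 against 1 month, and 0 throughout for Co against Ta at 1 and 12 months, P against Ta at 12 months and DU against Ta at 3 and 12 months. The block changed no other count by over 1.5 times. Outside Co against Ta at 3 months at least 1 pair of same-numbered libraries lay at or under 0.1. The median was still 0.311 for P against Ta at 3 months. What a replicate number stands for is not known, and the reason for a call lost with the block there was not tested.

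With 3 counts worth 0.118 to 0.445 CPM, many values of Ccna2, Cdk1 and Birc5 outside the high Co libraries were near the floor, which limits their precision.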
